A study of Mus musculus with 8 samples.

Results

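The levels of 10 oocyte maternal-effect and subcortical complex genes, Nlrp5, Ooep, Padi6, Tle6, Nlrp2, Nlrp4f, Nlrp14, Zar1, Npm2 and Dppa3, were read in RNA from mouse ovarian granulosa cells. The genes were chosen by symbol, and all 10 were found among the 23235 rows of the expression table. All 10 passed the filter on low values, which kept 13688 genes. The study compared CNOT6/6L knockout (KO) with wild type (WT) granulosa cells, either without treatment (0 h) or sampled 44 h after PMSG, which acts like follicle-stimulating hormone and starts follicle growth. CNOT6 and CNOT6L are deadenylases of the CCR4-NOT complex, which shortens mRNA poly(A) tails. The groups were KO at 44 h, WT at 44 h, KO at 0 h and WT at 0 h, with 2 libraries each, all from female C57BL/6 mice. The age of the animals, the PMSG dose, the form of the alleles and the animal behind each library are not stated in the labels. The spread that p-values rest on is that between libraries, and it may be purely technical.

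Maternal-effect genes are transcribed in the growing oocyte, and the embryo uses their products before its own genome is active. Several of the encoded proteins assemble beneath the oocyte membrane into the subcortical maternal complex, which mouse embryos need to pass the first cleavages, and into fibrous lattices in the oocyte cytoplasm. Granulosa cells are somatic cells that surround the oocyte and touch it through processes, whereas these genes are known from the oocyte itself. In bulk RNA, fewer oocytes among the cells and less of these transcripts per oocyte cannot be told apart, and this holds for every difference given here.

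The labelled cell type was checked against its markers. All 12 granulosa markers were detected, with summed levels of 12891 to 29654 FPKM (fragments scaled to transcript length and library size) across the 8 libraries. A list of 25 other oocyte markers, among them the egg-coat genes Zp1, Zp2 and Zp3 and the growth factor gene Gdf9, was also detected in full. Their summed levels spanned 2507 to 4239 FPKM for KO at 44 h and 1764 to 1794 FPKM for WT at 44 h. At 0 h they spanned 7150 to 8051 FPKM for KO and 3195 to 5262 FPKM for WT. Cnot6 was 11.7 and 12.0 FPKM in KO at 0 h, against 29.1 and 18.4 FPKM in WT at 0 h. At 44 h Cnot6 was 26.7 FPKM in the library labelled KO replicate 1 and 17.4 FPKM in KO replicate 2, against 26.0 and 26.9 FPKM in WT, so the library labelled KO replicate 1 lay within the WT range. Cnot6l at 44 h was 2.01 and 1.61 FPKM in KO, against 4.20 and 2.63 FPKM in WT, and at 0 h it was 4.69 and 1.97 FPKM in KO, against 6.11 and 7.07 FPKM in WT. The differences between genotypes were not called for Cnot6 or Cnot6l, and summary values without the library labelled KO 44 h replicate 1 are given beside the comparisons that use it.

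The promoters of the genes were looked up because the 10 genes kept nearly the same order of groups, as given below. RefSeq windows of the GRCm38.p6 build, 300 bases from 250 before to 50 after a start site, were found for 7 of the 10 genes, 9 windows in all. Nlrp14, Npm2 and Dppa3 are named only. The submitters' processing notes name another build, mm9, and the values were joined to these windows by symbol alone. An E-box (CANNTG, which reads the same class on both strands) is the motif bound by FIGLA, an oocyte transcription factor. It stood in 8 of the 9 windows, and in 72.3% of the 32851 windows of the table. The element TAATTG, its variant TAGTTG and the palindrome TAATTA, all searched on both strands, are of the kind bound by NOBOX, an oocyte homeobox factor. They stood in 4 of the 9 windows, both Nlrp5 windows among them, and in 17.9% of all windows. Nlrp5 and Tle6 have more than 1 window each, so the windows are not separate genes. The second Nlrp5 window, chr7:23403852-23404151, also held both motifs and is not printed. The first 3 windows below hold both motifs, and the Nlrp2 window holds neither. Capitals mark E-boxes and homeobox elements, which do not overlap in these windows, and each sequence runs 5′ to 3′ on the strand of its gene.
Nlrp5, chr7:23385639-23385938, plus strand: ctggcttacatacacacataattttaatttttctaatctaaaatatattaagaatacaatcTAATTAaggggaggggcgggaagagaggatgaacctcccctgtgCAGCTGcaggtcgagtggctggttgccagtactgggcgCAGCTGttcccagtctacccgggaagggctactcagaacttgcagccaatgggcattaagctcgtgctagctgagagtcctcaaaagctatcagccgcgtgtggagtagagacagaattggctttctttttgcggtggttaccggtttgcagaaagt
Ooep, chr9:78378539-78378838, minus strand: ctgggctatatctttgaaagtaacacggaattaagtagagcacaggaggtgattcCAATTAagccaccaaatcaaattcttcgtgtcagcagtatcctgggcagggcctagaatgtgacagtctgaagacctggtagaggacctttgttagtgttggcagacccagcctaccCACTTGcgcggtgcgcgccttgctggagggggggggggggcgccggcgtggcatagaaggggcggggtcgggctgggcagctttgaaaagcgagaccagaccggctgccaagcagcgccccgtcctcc
Padi6, chr4:140742594-140742893, minus strand: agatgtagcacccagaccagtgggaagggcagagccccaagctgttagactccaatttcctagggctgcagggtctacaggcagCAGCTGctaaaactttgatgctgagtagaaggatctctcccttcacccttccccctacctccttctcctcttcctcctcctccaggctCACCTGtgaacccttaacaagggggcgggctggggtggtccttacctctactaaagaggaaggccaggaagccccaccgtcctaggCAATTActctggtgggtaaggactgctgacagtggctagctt
Nlrp2, chr7:5350986-5351285, minus strand: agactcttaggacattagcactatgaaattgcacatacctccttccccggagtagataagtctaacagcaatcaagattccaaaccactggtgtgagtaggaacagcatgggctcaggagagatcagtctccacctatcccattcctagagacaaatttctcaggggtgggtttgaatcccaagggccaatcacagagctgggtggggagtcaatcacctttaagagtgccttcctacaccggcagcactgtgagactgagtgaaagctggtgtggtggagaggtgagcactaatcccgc
In the Nlrp5 window the homeobox element started at -189 and the E-boxes at -145 and -107, counted from the start site. In Ooep the homeobox element was at -195 and the E-box at -78, and in Padi6 the homeobox element was at 8 and the E-boxes were at -166 and -78. A match describes the letters of a window and not binding.

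Nlrp5 encodes a large NLR-family protein that forms the core of the subcortical complex. At 44 h it was 74.1 and 67.1 FPKM in KO, against 38.5 and 35.2 FPKM in WT. At 0 h it was 277 and 268 FPKM in KO, against 78.9 and 128 FPKM in WT. Its replicates lay close together in every group except WT at 0 h, and no groups overlapped in either genotype comparison. Ooep encodes a KH-domain-like protein of the same complex. It was 107 and 49.4 FPKM in KO at 44 h, against 45.3 and 34.6 FPKM in WT at 44 h. It was 218 and 135 FPKM in KO at 0 h, against 66.5 and 110 FPKM in WT at 0 h. The lower Ooep library of KO lay just above the higher library of WT at 44 h, and the KO replicates were further apart than those of Nlrp5 at both times.

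Tle6, a member of the Groucho corepressor family that joins the complex in the oocyte, was 227 and 148 FPKM in KO at 44 h, against 113 and 131 FPKM in WT at 44 h. It was 507 and 353 FPKM in KO at 0 h, against 166 and 321 FPKM in WT at 0 h. Groups did not overlap, but the lower KO library and the higher WT library were near each other at both times. Padi6, a peptidylarginine deiminase family member that the cytoplasmic lattices require, was 248 and 146 FPKM in KO at 44 h, against 106 and 112 FPKM in WT at 44 h. It was 673 and 497 FPKM in KO at 0 h, against 176 and 357 FPKM in WT at 0 h. Both KO libraries were above both WT libraries at each time.

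**Figure D1:**
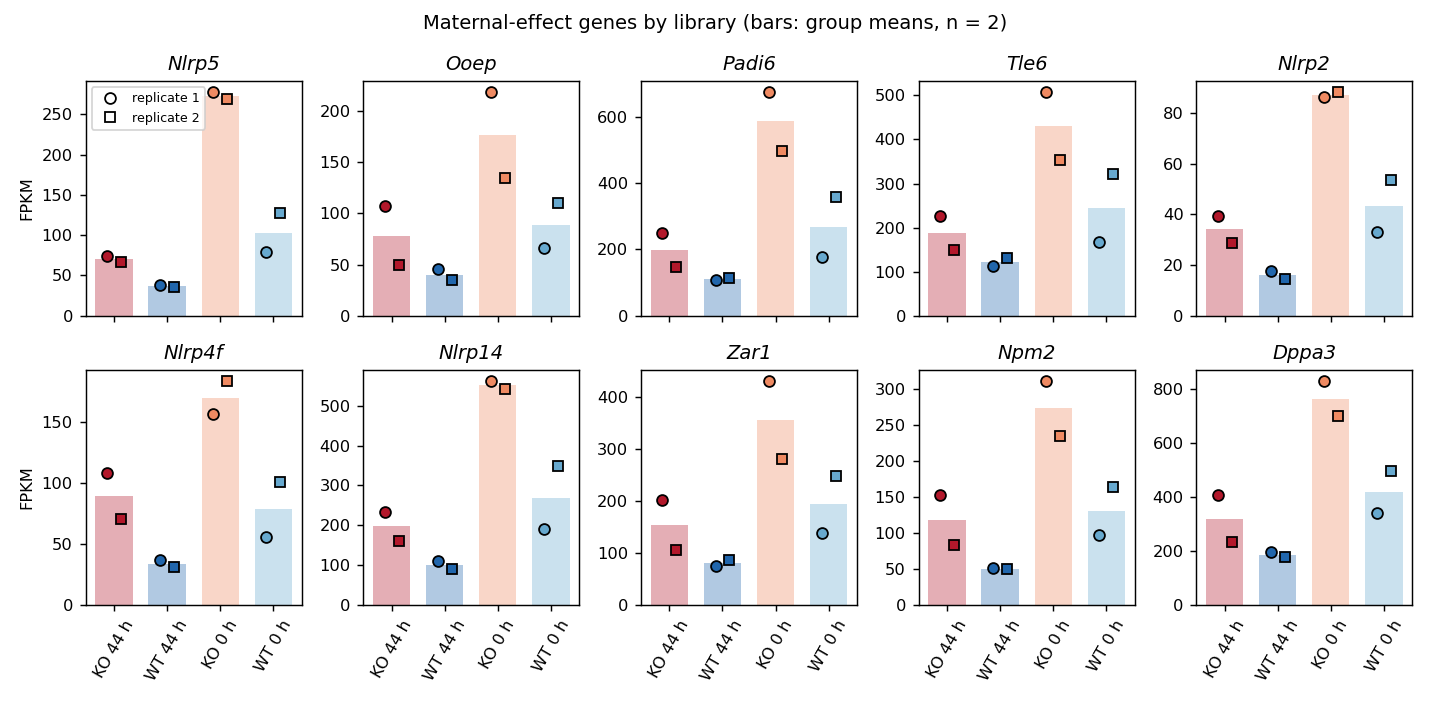
Level of each of the 10 genes in FPKM (y axis, its own scale for each gene, starting at 0) by group (x axis: KO 44 h, WT 44 h, KO 0 h, WT 0 h). Circles are replicate 1, squares replicate 2 and bars the mean of the 2 libraries. In all 10 genes the highest library was in KO at 0 h and the lowest in WT at 44 h.

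The other NLRP genes of the set encode NLR-family proteins of the oocyte and early embryo. Nlrp2, which in mouse acts as a maternal-effect gene, had the lowest levels of the 10 genes in every library. It was 39.2 and 28.8 FPKM in KO at 44 h, against 17.6 and 14.3 FPKM in WT at 44 h. It reached 86.2 and 88.1 FPKM in KO at 0 h, against 33.1 and 53.6 FPKM in WT at 0 h. Nlrp4f, one of several Nlrp4 copies and a component of the subcortical complex in mouse, was 108 and 70.9 FPKM in KO at 44 h, against 37.0 and 30.8 FPKM in WT at 44 h. It was 157 and 184 FPKM in KO at 0 h, against 55.6 and 101 FPKM in WT at 0 h. Because Nlrp4f has near-identical copies, how the authors' processing shared fragments among them is uncertain. Nlrp14, needed in mouse oocytes for early embryo development, was 234 and 160 FPKM in KO at 44 h, against 111 and 90.3 FPKM in WT at 44 h. It was 561 and 542 FPKM in KO at 0 h, against 189 and 347 FPKM in WT at 0 h. In these 3 genes the KO libraries at 0 h were closer together than those of WT at 0 h.

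The last 3 genes act on RNA or chromatin. Zar1, a zinc-finger protein that binds maternal mRNA, was 201 and 105 FPKM in KO at 44 h, against 74.7 and 85.5 FPKM in WT at 44 h. It was 430 and 281 FPKM in KO at 0 h, against 139 and 247 FPKM in WT at 0 h. Npm2, a nucleoplasmin histone chaperone that organises oocyte chromatin, was 152 and 82.4 FPKM in KO at 44 h, against 51.1 and 49.3 FPKM in WT at 44 h. Its levels at 0 h were 310 and 235 FPKM in KO, against 96.5 and 163 FPKM in WT. Dppa3, which protects maternal DNA methylation in the zygote, had the highest levels of the set in every library, at 406 and 234 FPKM in KO at 44 h, against 194 and 179 FPKM in WT at 44 h. At 0 h it was 830 and 701 FPKM in KO, against 343 and 496 FPKM in WT. Both KO libraries exceeded both WT libraries at each time in all 3 genes.

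The order of group means was the same in 9 of the 10 genes: KO at 0 h, then WT at 0 h, then KO at 44 h, then WT at 44 h. In Nlrp4f the mean of KO at 44 h, 89.7 FPKM, lay above that of WT at 0 h, 78.5 FPKM. The middle groups were not separated, since the libraries of KO at 44 h overlapped those of WT at 0 h in 9 of the 10 genes, Nlrp5 being the exception. The library labelled KO 44 h replicate 1 lay above WT 0 h replicate 1 in 9 genes, again all but Nlrp5. In all 10 genes these were the higher library of KO at 44 h and the lower library of WT at 0 h. The labels do not say that the replicate number pairs them, and no share over all genes is given for these counts. Summed over the 10 genes, KO libraries held 1797 and 1093 FPKM at 44 h, against 788 and 762 FPKM for WT. At 0 h, KO libraries held 4051 and 3284 FPKM, against 1344 and 2324 FPKM for WT.

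Without PMSG, all 10 genes had higher means in KO than in WT, by 1.76-fold (Tle6) to 2.64-fold (Nlrp5) in mean FPKM. On the log2(FPKM + 1) scale the differences were 0.87 to 1.43, with a median of 1.06, against a median of 0.034 over all 13688 genes tested. Nlrp5 had a difference of 1.43 (SE 0.226), and Padi6 of 1.20 (SE 0.378). Both KO libraries were above both WT libraries in 10 of the 10 genes, a pattern found in 27.3% of all genes tested. The 10 genes share their libraries and varied together across them (Pearson r of 0.908 to 0.997 between pairs). Counts of these genes, here and below, are therefore not counts of separate observations. At an unadjusted p under 0.05, 8 of the 10 were higher, against 7.55% of all genes. None passed an adjusted p under 0.05 (limma, Benjamini-Hochberg over all genes, adjusted p = 0.267 to 0.522), where 0.0365% of all genes did. In a fit of the 0 h libraries only, 0 members were called, against 0.0146% of genes called higher. Without WT 0 h replicate 1, the lower of the WT libraries, the median difference was 0.68.

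At 44 h the genotype difference had the same sign in all 10 genes, from 1.54-fold (Tle6) to 2.65-fold (Nlrp4f) in mean FPKM. The log2 differences were 0.59 to 1.35 with a median of 0.89, against 0.046 over all genes. Nlrp4f had a difference of 1.35 (SE 0.318, limma adjusted p = 0.457) and Npm2 of 1.14 (SE 0.348, adjusted p = 0.494). Libraries of KO lay above those of WT in 10 of 10 genes, against 23.9% of all genes. Higher at an unadjusted p under 0.05 were 6 of the 10, against 6.69% of all genes. By limma's adjusted p 0 of the 10 were called, against 0.0219% of all genes, and likewise 0 in the fit of the 44 h libraries only, where 0.0219% were called higher. Without the library labelled KO 44 h replicate 1 the folds were 1.22 (Tle6) to 2.09 (Nlrp4f) and the median log2 difference was 0.55. KO replicate 2 alone was above both WT libraries in 10 of 10 genes, a count of 1 library for which no share over all genes is given. In that fit 3 of the 10 were higher at an unadjusted p under 0.05, against 5% of all genes, and 0 were called by limma's adjusted p, against 0.022% of genes called higher. Without KO 44 h replicate 2 the median was 1.24, and Dppa3, Nlrp4f and Npm2 passed, against 2.43% of genes called higher.

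After PMSG the levels in WT were lower at 44 h than at 0 h in all 10 genes. The ratio of mean FPKM, 44 h to 0 h, ran between 0.357 (Nlrp5) and 0.500 (Tle6). The log2 differences were -1.42 to -0.92 with a median of -1.20, and the median over all genes was -0.13. After median-of-ratios scaling these medians were -1.06 and -0.014, so the members lay below the bulk of genes under either scaling. Both 44 h libraries were below both 0 h libraries in 10 of 10 genes, against 40.6% of all genes. At an unadjusted p under 0.05 all 10 were lower, against 15.8% of all genes. None was called by limma in the fit of all libraries (adjusted p = 0.0776 to 0.181), where 0.0804% of genes were. In the fit of the WT libraries only, Nlrp5, Dppa3, Nlrp2 and Npm2 fell at adjusted p = 0.0362 to 0.0467, against 2.91% of genes called lower. These fits differ in the spread they use, and the KO libraries at 44 h are in the first only. With the library labelled KO 44 h replicate 1 left out of the shared fit, 5 members passed in WT, against 4.93% of genes. With KO 44 h replicate 2 left out, 5 passed, against 4.99% of genes. In both cases the 5 were Nlrp5, Nlrp2, Nlrp14, Npm2 and Dppa3.

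In KO the levels were likewise lower at 44 h than at 0 h in all 10 genes, with ratios of mean FPKM of 0.259 (Nlrp5) to 0.526 (Nlrp4f). Nlrp5 fell to 70.6 ± 4.94 FPKM in KO at 44 h, against 273 ± 6.39 FPKM in KO at 0 h (SD, n = 2 each), a log2 difference of -1.94 (SE 0.226, limma adjusted p = 0.0478). It was the only member called, where 0.139% of all genes were, and its call was near the threshold. It was lost with a replicate block (0.00731% of all genes called lower), without the filter (0.00937%), after quantile normalization (0.0219%) and in the fit of the KO libraries only. It was also lost when KO 44 h replicate 2, either WT 44 h library or either KO 0 h library was left out. Over all alternatives its limma adjusted p ran from 0.0117 to 0.282. The 10 differences ran from -1.94 to -0.94 with a median of -1.28, against -0.11 over all genes. Libraries of KO at 44 h lay below those at 0 h in 10 of 10 genes, against 34.1% of all genes. All 10 were lower at an unadjusted p under 0.05, against 15.4% of all genes. The fit of the KO libraries only called 0 members, against 0.0292% of genes called lower. Without the library labelled KO 44 h replicate 1 the median was -1.71, and 8 members passed, all but Tle6 and Nlrp4f, against 4.48% of genes called lower. Without KO 44 h replicate 2 the median was -0.90, and 0 members passed limma's adjusted p, against 0.111% of genes called lower.

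**Figure D2:**
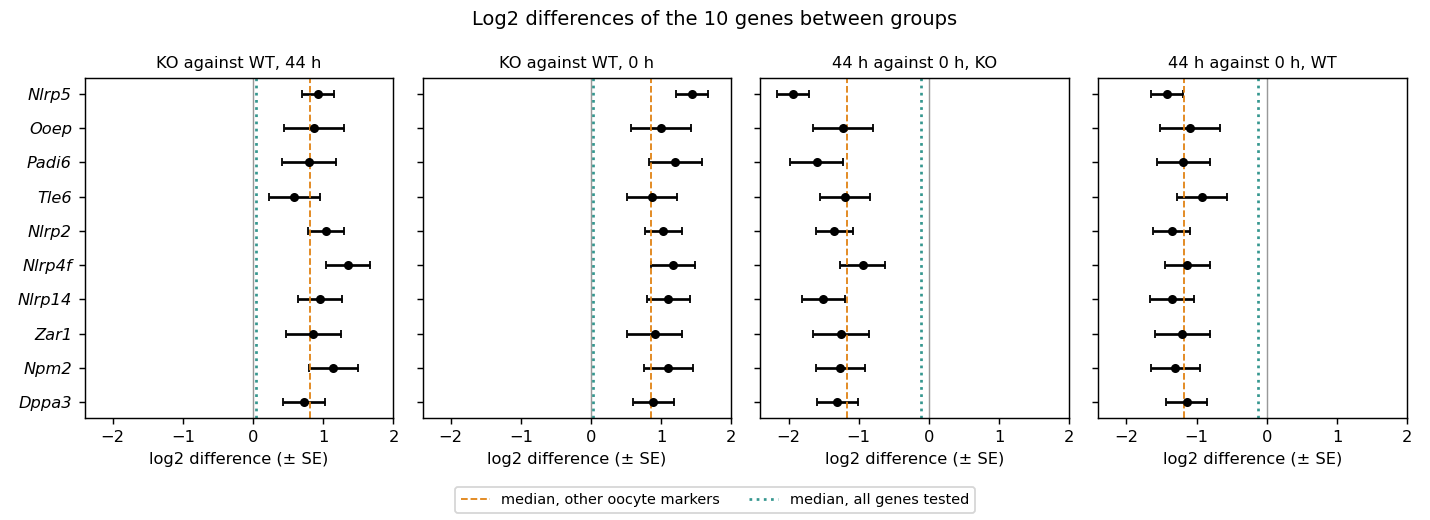
Log2 differences of the 10 genes (points, x axis, on the log2(FPKM + 1) scale) with the SE of the limma fit (bars), in 4 panels, a genotype panel for each time and a PMSG panel for each genotype. Dashed lines are the median of the 25 other oocyte markers and dotted lines the median of all genes tested. All 10 points lie above 0 in the genotype panels and below 0 in the PMSG panels, and in the 0 h genotype panel all 10 lie above the oocyte marker line.

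Whether the lowering after PMSG differed between genotypes was tested as the difference of the log2 changes, KO minus WT. The 10 values ran from -0.51 (Nlrp5, SE 0.320) to 0.19 (Nlrp4f, SE 0.449), with a median of -0.14. None reached an unadjusted p under 0.05, against 1.82% of all genes in either direction. None was called, against 0.0438% of all genes, and limma's adjusted p was 0.9999 for each. Without the library labelled KO 44 h replicate 1 the median was -0.54, without KO 44 h replicate 2 it was 0.23, and without WT 0 h replicate 1 it was 0.26. The sign of this difference thus turned on single libraries.

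The 25 other oocyte markers had differences of the same direction as the 10 genes. All 25 were higher in KO at both times and lower at 44 h in both genotypes, with 0 called by limma's adjusted p. At an unadjusted p under 0.05 were 17 between genotypes at 0 h, 15 at 44 h, 25 for PMSG in WT and 23 for PMSG in KO. Their median genotype differences were 0.85 at 0 h and 0.80 at 44 h, and their median PMSG differences were -1.18 in WT and -1.17 in KO. Without the library labelled KO 44 h replicate 1 the marker medians were 0.45 between genotypes at 44 h and -1.59 for PMSG in KO. The mean log2 level of the 10 genes followed the mean of the markers from the lowest library, WT 44 h replicate 2, at 5.92 and 4.84, to the highest, KO 0 h replicate 1, at 8.39 and 7.01. The libraries of WT at 0 h differed by the same sign in all 10 genes, with replicate 2 higher by a median of 1.74-fold. The libraries of KO at 44 h differed in the other direction, with replicate 1 higher in all 10 genes by a median of 1.61-fold. Across the 8 libraries the 45 pairs of the 10 genes had Pearson r of 0.908 to 0.997, with a median of 0.972. These points fall into 4 groups and share their libraries, so r describes them only. Markers of the oviduct and ciliated cells took another course, with summed levels of 25.3 and 456 FPKM in KO at 44 h, against 408 and 25.8 FPKM in WT at 44 h. Theca and stroma markers differed with PMSG, at 232 and 332 FPKM in KO at 44 h, against 124 and 90.4 FPKM in KO at 0 h, and at 296 and 267 FPKM in WT at 44 h, against 107 and 105 FPKM in WT at 0 h. Summed granulosa markers were also higher at 44 h in both genotypes. The genes of these 2 lists did not all go the way of their sums. Of the 12 granulosa markers, 9 were higher and 3 lower at 44 h in each genotype. Their log2 differences were -2.08 to 3.04 in WT and -1.76 to 2.39 in KO. Of the 9 theca and stroma markers tested, 7 were higher and 2 lower in WT, and 6 were higher and 3 lower in KO. KO 44 h replicate 2 had more of the surface epithelium markers than the library labelled KO 44 h replicate 1, 448 against 138 FPKM, and more of the endothelial markers, 44.0 against 12.97 FPKM. The libraries of KO at 0 h were also unlike, with immune markers summed to 770 FPKM in replicate 1 and 116 FPKM in replicate 2. The part of these cell types, or of the amount of oocyte RNA, in the differences was not tested.

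**Figure D3:**
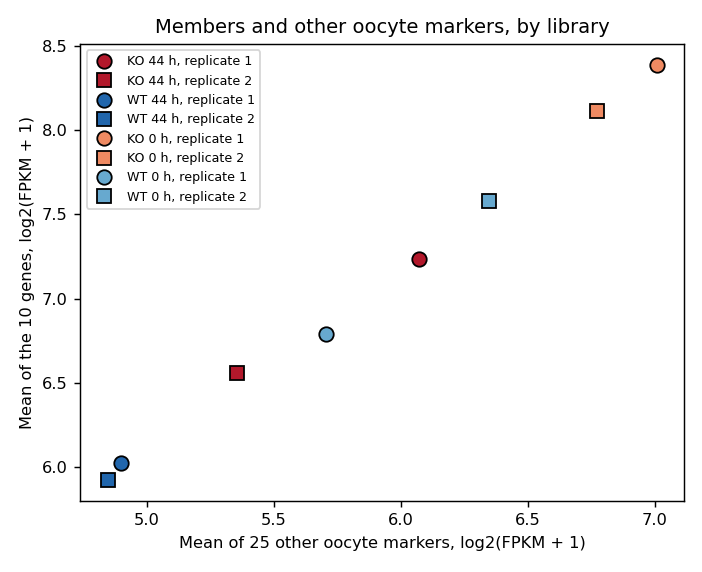
Mean log2(FPKM + 1) of the 10 genes (y axis) against the mean of the 25 other oocyte markers (x axis), 1 point a library; colours are groups, circles replicate 1 and squares replicate 2. The points run along a line from WT at 44 h (lower left) to KO at 0 h (upper right), with the libraries of KO at 44 h and WT at 0 h alternating between them.

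Set against the marker mean of the same library, the genes varied less. The log2 range over the 8 libraries had a median of 2.58 for the levels themselves and of 0.57 for the levels relative to the markers. The median relative genotype difference was 0.20 at 0 h, where all 10 genes lay above 0, and 0.051 at 44 h. At 0 h the values ran from 0.0049 (Tle6) to 0.57 (Nlrp5), with 0.023 in Dppa3 and 0.041 in Zar1. Tle6 libraries at 0 h were 1.98 and 1.70 in KO on this scale, against 1.68 and 1.99 in WT. No relative value without a 0 h library is given. The 44 h median was 0.0077 with a pseudocount of 0.25, 0.018 with the median of the markers and 0.064 without the library labelled KO replicate 1. The median relative PMSG difference was -0.042 in WT, turning to 0.022 with a pseudocount of 0.25. In KO it was -0.11, and -0.17 without the library labelled KO 44 h replicate 1. Relative levels did not overlap between genotypes in 5 genes at 0 h, all higher in KO, and in 4 genes at 44 h, 2 higher and 2 lower in KO. No share over all genes is given on this scale, so these counts cannot be set against a background and are a description only. Dppa3 had the smallest relative range, 0.19. Relative levels of Ooep and Zar1 overlapped between groups in all 4 comparisons.

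Nlrp5 had the largest relative range, 1.14. Its relative log2 level was 1.11 and 1.30 in KO at 0 h, against 0.61 and 0.66 in WT at 0 h. At 44 h it was 0.16 and 0.74 in KO, against 0.41 and 0.33 in WT. The groups were thus apart at 0 h and overlapped at 44 h. Padi6, Nlrp2 and Nlrp14 also did not overlap at 0 h and overlapped at 44 h, but their nearest KO and WT libraries at 0 h were close. Padi6 was 2.39 and 2.19 in KO at 0 h, against 1.76 and 2.14 in WT at 0 h. Nlrp2 was -0.562 and -0.293 in KO at 0 h, against -0.614 and -0.574 in WT at 0 h. Nlrp14 was 2.127 and 2.314 in KO at 0 h, against 1.866 and 2.098 in WT at 0 h. Nlrp4f stood apart at 44 h instead, at 0.70 and 0.81 in KO, against 0.35 and 0.15 in WT. Npm2 was higher relative to the markers in KO at both times, at 1.19 and 1.03 in KO at 44 h, against 0.81 and 0.81 in WT. At 0 h its relative levels were 1.27 and 1.11 in KO, against 0.90 and 1.01 in WT. Tle6 was lower in KO at 44 h on this scale, with both KO libraries below both WT libraries and a mean difference of -0.25. Dppa3 was also lower there, at 2.60 and 2.53 in KO, against 2.71 and 2.64 in WT. These relative levels are a description, with no test.

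**Figure D4:**
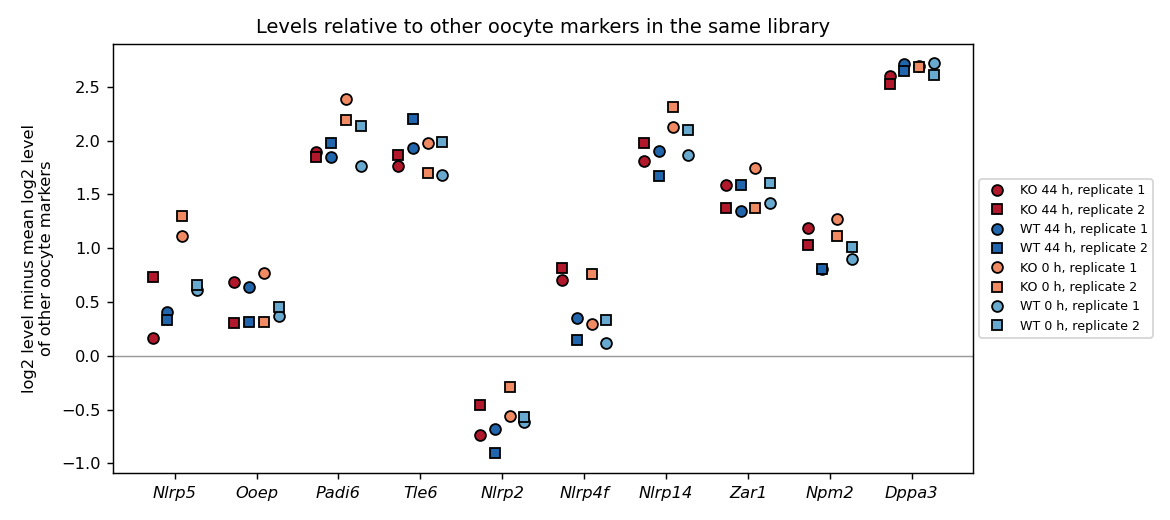
Log2(FPKM + 1) of each gene minus the mean of the 25 other oocyte markers in the same library (y axis), for the 10 genes (x axis); colours are groups, circles replicate 1 and squares replicate 2. Nlrp5 spans 1.14 and Dppa3 0.19 over the 8 libraries, and the libraries of KO at 0 h stand above the other groups in Nlrp5.

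The remaining partners of the complex and related NLRP genes were read from a list of 11, of which 10 were in the table and 9 passed the filter; Nlrp4d was not analysed here. Khdc3, an RNA-binding protein of the complex listed under its older symbol 2410004A20Rik, was 100 and 48.3 FPKM in KO at 44 h, against 34.8 and 35.4 FPKM in WT at 44 h. It was 218 and 191 FPKM in KO at 0 h, against 75.2 and 108 FPKM in WT at 0 h. Zbed3, a further protein of the complex, was 686 and 446 FPKM in KO at 44 h, against 319 and 251 FPKM in WT at 44 h. It reached 1175 and 835 FPKM in KO at 0 h, against 428 and 823 FPKM in WT at 0 h. Both thus had the same group order as the 9 genes above. Of the other copies, Nlrp4a, Nlrp4b, Nlrp9a, Nlrp9b and Nlrp9c ranged from 9.44 FPKM (Nlrp9c in WT 44 h replicate 2) to 75.6 FPKM (Nlrp9b in KO 0 h replicate 1). Nlrp4e reached 15.1 FPKM and Nlrp4c 4.58 FPKM in KO at 0 h, and Nlrp4g was listed at 0 in all 8 libraries. All 9 tested genes of the list were higher in KO at both times, with medians of 1.01 at 0 h and 0.95 at 44 h, and lower at 44 h than at 0 h, with medians of -1.24 in WT and -1.25 in KO. Without the library labelled KO 44 h replicate 1 the medians were 0.66 between genotypes at 44 h and -1.58 for PMSG in KO. With all libraries, none passed limma's adjusted p in these comparisons. At an unadjusted p under 0.05 were 8 between genotypes at each time, 9 for PMSG in WT and 8 for PMSG in KO.

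Replicate libraries of KO at 0 h differed by unequal factors across the 10 genes. The ratio of replicate 1 to replicate 2 was 0.852 to 1.04 in the 4 NLRP genes and 1.18 to 1.62 in the other 6. It was 0.863 to 1.29 in the 7 NLRP relatives above 0, and 1.14 in Khdc3 and 1.41 in Zbed3. In KO at 44 h the ratio was 1.10 to 1.53 in the 4 NLRP genes and 1.53 to 2.17 in the other 6, while in WT at 0 h both sets were below 1, at 0.545 to 0.618 and 0.494 to 0.691. In WT at 44 h it was 1.09 to 1.23 in the 4 NLRP genes and 0.859 to 1.31 in the other 6, whose median of 0.993 was below the NLRP median of 1.21. The transcripts used here for the NLRP genes (GENCODE vM21) were 3272 to 3551 bases long and those of the other 6 genes 833 to 2333 bases. Within the other 6, the ratio in KO at 0 h was 1.18 in Dppa3 (833 bases), 1.32 in Npm2 (997 bases) and 1.53 in Zar1 (1429 bases). It was 1.44 in Tle6 (2015 bases), 1.62 in Ooep (2138 bases) and 1.36 in Padi6 (2333 bases). The split into NLRP genes and the other 6 was made after the values were seen, and the part of transcript length in it was not tested.

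Genes with the most similar pattern were sought among 8893 other genes with a mean of at least 5 FPKM, by Pearson r with the mean log2 level of the 10 genes across the 8 libraries. The closest 10 were Zfp828, Riok1, Oas1e, Gdf9, Map3k6, Dnmt3l, Spire1, Bpgm, Aspm and Zfp57, with r of 0.996 to 0.998. Pearson r does not measure the size of a difference. Zfp828, the closest, averaged 19.9 FPKM in KO and 14.7 FPKM in WT at 44 h, and 29.5 FPKM in KO and 22.0 FPKM in WT at 0 h. Riok1 averaged 42.1 FPKM in KO and 29.9 FPKM in WT at 44 h, and 65.5 FPKM in KO and 45.7 FPKM in WT at 0 h. Dnmt3l, a cofactor of DNA methylation in the oocyte, averaged 17.0 FPKM in KO and 8.28 FPKM in WT at 44 h, and 38.8 FPKM in KO and 20.8 FPKM in WT at 0 h. Zfp57, a zinc-finger protein that maintains imprints, averaged 98.8 FPKM in KO and 51.1 FPKM in WT at 44 h, and 207 FPKM in KO and 117 FPKM in WT at 0 h. Spire1, an actin nucleator that acts in oocyte spindle positioning, averaged 8.08 FPKM in KO and 4.60 FPKM in WT at 44 h, and 14.4 FPKM in KO and 8.83 FPKM in WT at 0 h. Only Gdf9 of these belongs to the oocyte marker list. Over the 12 granulosa markers r ran from -0.891 for Inhba, an inhibin and activin subunit, to 0.828 for Esr2, an oestrogen receptor.

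The 3′ UTRs of the 10 genes were described because CCR4-NOT acts on poly(A) tails. They were taken from GENCODE vM21 (GRCm38), 1 coding transcript a gene, and were 109 bases (Nlrp5) to 1446 bases (Ooep) long, with a median of 196, against 841 over 20071 genes. A cytoplasmic polyadenylation element (TTTTAT or TTTTAAT, on the transcript strand), which CPEB1 binds in oocytes to control tail length, was found in 1 of the 10 genes, Nlrp4f, against 54.9% of all genes. Per kilobase of UTR this was 0.575 elements in the 10 genes and 1.34 in all genes. Ooep, with the longest UTR of the 10, held none. Within the last 100 bases of the UTR the element stood in 1 of the 10 genes, against 17.2% of all genes. The 30 bases of the Nlrp4f UTR around its last element, on chromosome 13 (minus strand), are shown with the element in capitals.
Nlrp4f: tgctgttttgtgTTTTATattaaagaatag
It starts 29 bases before the end of the transcript, counting its own first base. The AU-rich pentamer ATTTA stood in 6 of the 10 genes, against 63.2% of all genes, or 3.74 per kilobase of UTR in the 10 genes and 1.94 in all genes, with 8 of the 13 copies in Ooep.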

How the data were processed

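RNA was measured in 8 libraries of mouse granulosa cells, extracted with Trizol and sequenced as paired-end reads, per the labels' protocols. The authors deposited 1 table of FPKM values with a column per library, per the file headers. Tools named per the submitters' processing notes, without their roles, are TopHat2 2.1.1 and Cufflinks 2.2.1, with mm9 as the build; the annotation is not given in the sources used here. Relative depth, read from the steps between low FPKM values, was 0.904 to 1.25 of the median library, and FPKM sums were 675557 to 753216. A value of 0 may be a failed estimate.

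The filter kept 13688 of 23235 genes, those that reached 1 FPKM in 2 or more libraries. Values were analysed as log2(FPKM + 1), which understates the change of low genes. limma 3.58.1 in R 4.3.3 fitted a mean for each of the 4 groups to all 8 libraries (two-sided, 4 residual degrees of freedom, empirical Bayes with a trend of variance on the mean). Each of 5 comparisons had its own Benjamini-Hochberg adjustment over the 13688 genes, and a gene was called where this p was under 0.05. FPKM are not counts, so no count model was used. The fit was tested on simulated data.

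The 10 genes and the marker lists were chosen with earlier results of these data known, and gene lists are described by counts and medians. Named genes were the 10 genes, Cnot6 and Cnot6l, the measured complex partners and NLRP relatives, and the 10 genes of highest correlation with the mean of the set. Older symbols were matched through RefSeq synonyms. Promoters came from RefSeq (GRCm38.p6) and UTRs from GENCODE vM21, by symbol. Alternatives were a pseudocount of 0.25, no filter on low values, quantile normalization, median-of-ratios scaling, a block for replicate number (replicate block), fits of only the groups compared, leaving out each library in turn, and the median of the markers in place of their mean. Python 3.11.15 with pandas 2.3.3 and numpy 2.4.6 made the summaries.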

Additional observations from a re-analysis of the deposited data

How the results depend on the processing

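The differences of the 10 genes kept their sign in the 4 comparisons of 2 groups under every alternative run. In KO after PMSG, 0 members were called with a replicate block, without the filter, after quantile normalization and in the fit of the KO libraries only, against 1 as reported. The shares of all genes called lower were 0.00731% with the block, 0.00937% without the filter, 0.0219% after quantile normalization and 0.0292% with the KO libraries only. In the fit of the WT libraries only 4 were called in WT, where 2.91% of genes were lower, against 0 as reported. The labels do not say whether libraries of the same replicate number were handled together. Deviations of same-numbered libraries correlated at -0.11 to -0.0068 between groups (13688 genes), which cannot settle this. Among the 10 genes, the replicate block changed no call but that of Nlrp5 in KO after PMSG. Over all genes in KO after PMSG, 9 were called lower without the block and 1 with it. Leaving out 1 library at a time, members called were 0 to 3 for KO against WT at 44 h (0 to 6.21% of all genes), 0 to 5 for PMSG in WT (0.0220 to 10.1%) and 0 to 8 for PMSG in KO (0.0148 to 8.99%). The lone library of a group was then assumed to vary like the others. The median difference ran from 0.68 to 1.42 for KO against WT at 0 h, 0.55 to 1.24 at 44 h, -1.65 to -0.83 for PMSG in WT and -1.71 to -0.90 in KO. For the difference of the PMSG changes it ran from -0.54 to 0.26, and for the members that changed sign from -0.68 to 0.42 (Ooep), -0.91 to 0.10 (Padi6), -0.75 to 0.19 (Tle6), -0.33 to 0.35 (Nlrp2), -0.24 to 0.61 (Nlrp4f), -0.59 to 0.28 (Nlrp14), -0.52 to 0.42 (Zar1), -0.39 to 0.48 (Npm2) and -0.56 to 0.23 (Dppa3). After quantile normalization it was -0.070 for Nlrp2 and -0.027 for Npm2. Relative to the oocyte markers, the median PMSG difference in WT was 0.022 with a pseudocount of 0.25. With 2 libraries a group, leaving out a library changed the count of members called in 3 of the 5 comparisons, and the causes of these dependences were not tested.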
